A study of Mus musculus with 8 samples.

Results

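The genes described here make cholesterol and isoprenoids from acetyl-CoA, control that synthesis, or move and store its product. They were given as a list of 31 gene symbols, of 53465 gene IDs in all, and were placed in 5 roles. There were 7 mevalonate steps, 11 steps of squalene and sterol synthesis, 3 enzymes of the isoprenoid branch, 6 regulators and 4 genes of sterol transport and esterification. All 31 matched an ID, and all 31 passed the filter on low counts, with at least 1516 reads each over the 4 libraries of either group.

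RNA was sequenced from regulatory T cells (Tregs), the CD4+ T cells that restrain immune responses, made in culture from wild-type C57BL/6 mice of unstated age. The BMS309403 group (n = 4) was cells that received 50 µM BMS309403, a compound that blocks fatty acid-binding proteins and that the series describes as directed at FABP5. The control group (n = 4) was cells kept without it. Both groups shared the preceding 72 h of culture. Total CD4+ cells of spleen and peripheral lymph nodes were stimulated through CD3 (5 µg/mL coating antibody) and CD28 (0.5 µg/mL) with 100 U/mL of interleukin 2 and 5 ng/mL of TGF-β. Antibodies (10 µg/mL) blocked interleukin 4, interleukin 12 and interferon gamma. The labels name neither a solvent control nor the length of exposure, and an effect of blocking these proteins cannot be told apart from another effect of the compound. The source of each replicate (animal or culture) is not stated, so p-values measure only the spread between these libraries, which may be technical.

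The pathway begins with acetyl-CoA, passes through mevalonate to farnesyl diphosphate, and divides there. One arm runs through squalene and lanosterol to cholesterol, and the others give geranylgeranyl groups for proteins, dolichol for glycosylation and the side chain of ubiquinone. When membrane sterol is low, SCAP escorts SREBP2 from the endoplasmic reticulum to the Golgi, where the proteases encoded by Mbtps1 and Mbtps2 release its transcription factor domain. When sterol is high, INSIG proteins hold SCAP back. Activated T cells are known to raise this pathway as they grow and divide.

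Library totals lay between 38684721 and 42552943 counts in BMS309403 libraries and between 32923433 and 44644485 counts in control libraries. Values below are CPM, the usual read counts per library size, scaled by the TMM method. Foxp3, the lineage factor of Tregs, was at 1246 CPM in BMS309403 libraries and 949 CPM in control libraries, and 4 of 5 Treg markers were called higher with BMS309403, against 18.7% of all 14443 tested genes called higher and 18.1% called lower (edgeR, adjusted p under 0.05). The general T cell markers were mixed, with 3 of 5 called lower (Cd3e, Cd3d and Cd3g), Cd2 called higher and Cd4 not called, and sums of 1722 to 1862 CPM in BMS309403 and 1847 to 1908 CPM in control libraries. Of the dendritic cell markers, 2 of 5 passed the filter on low counts and 1 was called, Zbtb46, which was higher. The list summed to 8.16 to 11.5 CPM in BMS309403 and 3.93 to 4.41 CPM in control libraries, most of it Zbtb46 (mean 8.89 and 3.59 CPM in those groups), while Itgax averaged 0.271 CPM with BMS309403 and 0.347 CPM in control. Of the macrophage and monocyte markers, 2 of 5 passed the filter and 1 was called, Adgre1, which was lower, with sums of 0.835 to 3.13 CPM in BMS309403 and 1.87 to 3.42 CPM in control libraries. Of the B cell markers, 1 of 5 was called, Cd79b, which was lower, with sums of 4.73 to 7.44 CPM in BMS309403 and 5.86 to 8.71 CPM in control libraries. CD8 T cell markers summed to at most 14.9 CPM in any library, NK cell markers to at most 0.207 CPM and red cell markers to at most 0.565 CPM. The NK cell markers Ncr1 and Klra8 and the red cell markers Hba-a2 and Hbb-bs were at 0 in every library. Mitochondrially encoded genes took 0.484% to 0.608% of counts in BMS309403 libraries and 0.639% to 0.781% in control libraries. The part of these differences in the results below was not tested. In bulk RNA, fewer cells that express a gene and less RNA of it per cell cannot be told apart.

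Genes of cholesterol synthesis were lower with BMS309403 at every step listed here, whereas the 3 enzymes that lead to other isoprenoids were not. Of the 31 genes, 24 were called lower by edgeR's quasi-likelihood test at an adjusted p under 0.05, against a background of 18.1% of the 14443 tested genes called lower. Another 2 were called higher, against a background of 18.7%, and 5 were not called. In either direction 36.8% of tested genes were called. The 24 lower genes were the 18 synthesis enzymes, 4 regulators, the sterol carrier Stard4 and the esterifying enzyme Soat1. For the same 24 genes all 4 BMS309403 libraries lay below all 4 control libraries, which held for 16.1% of tested genes. The groups also did not overlap for both higher genes, as for 17.7% of tested genes in that direction. The median log2 fold change was -0.51 over the 31 genes and 0.01 over all tested genes. Every one of the 31 estimates was under 2-fold, and 6 genes, Acat2, Hmgcs1, Mvd, Lss, Nsdhl and Dhcr7, were lower by more than 1.5-fold in edgeR's test against that threshold, against a background of 1.35%. The background past that threshold in the higher direction was 2.37%.

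**Figure D1:**
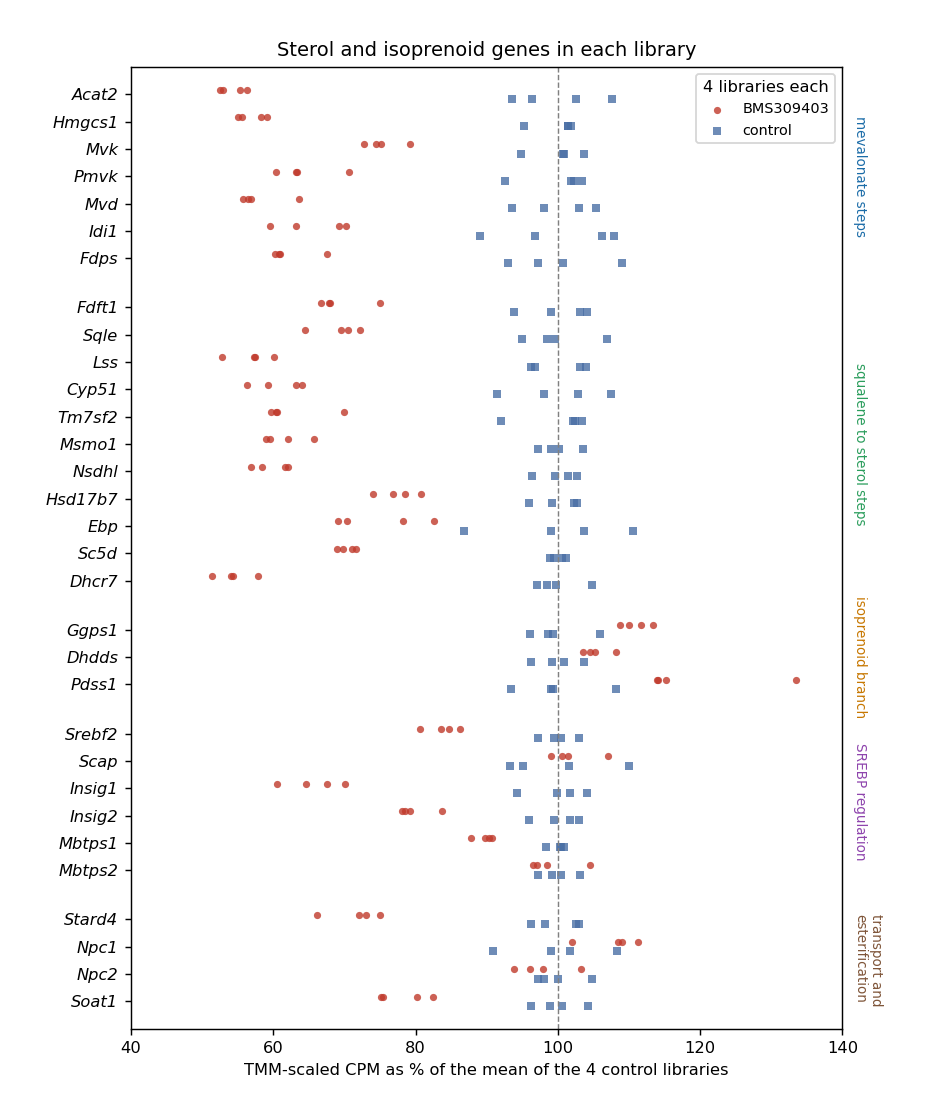
TMM-scaled CPM of the 31 genes in each library, as a percentage of the gene's mean in the 4 control libraries (dashed line at 100%), with BMS309403 libraries as circles above control libraries as squares. For the 18 enzymes of the upper 2 blocks every circle lies left of every square, while the circles of the isoprenoid branch lie right of the line.

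The list does not hold every enzyme from acetyl-CoA to cholesterol. The 18 that it holds together summed to 1605 ± 59.3 CPM in BMS309403 libraries and 2572 ± 66.2 CPM in control libraries (SD, n = 4 each). Their sum with BMS309403 was thus 62.4% of that in control. All 18 were called lower, against a background of 18.1% of tested genes. The enzymes fell by 1.29-fold to 1.84-fold, with a median log2 fold change of -0.68. Ranked among all tested genes from the most lowered up, they lay between the 2.07th and the 11.2th percentile. They are spread over 13 chromosomes.

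The mevalonate steps supply the carbon of every isoprenoid. Acat2 (ENSMUSG00000023832, chromosome 17, 12942890 to 12960747, minus strand, GRCm38) encodes the cytosolic thiolase that joins acetyl-CoA units at the start of the pathway. It read 44.3, 41.3, 43.5 and 41.6 CPM in BMS309403 libraries, against 80.7, 75.8, 84.7 and 73.7 CPM in control libraries. The groups were far apart, and its log2 fold change was -0.88 (SE 0.052, edgeR adjusted p = 1.44e-07), the lowest estimate of the 31. Acat2 shares 1477 bases at 97.7% identity with its neighbour Acat3, which held 50 counts over the 8 libraries, and 445 bases at 98.7% identity with Tcp1, which held 163966. Reads that match both copies could have been assigned to either.

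Hmgcs1 (ENSMUSG00000093930, chromosome 13, 119690379 to 119708260, plus strand) encodes the synthase that makes HMG-CoA and is a classical SREBP2 target. It stood at 295, 282, 299.6 and 279 CPM with BMS309403, against 483, 516, 515 and 514 CPM in control libraries. The spread within each group was small beside the gap between them, and Hmgcs1 was 1.75-fold lower (log2 fold change -0.81, SE 0.042, adjusted p = 6.15e-08).

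The kinases further along the pathway changed by unequal amounts. Mvk, mevalonate kinase, averaged 28.5 ± 1.05 CPM with BMS309403 and 37.8 ± 1.41 CPM in control (SD, n = 4 each), a log2 fold change of -0.41 with a 95% interval of -0.51 to -0.30. Pmvk, the next kinase, averaged 52.0 ± 3.55 and 80.8 ± 4.04 CPM in the BMS309403 and control libraries (log2 fold change -0.64, interval -0.76 to -0.51). Mvd, the decarboxylase that yields isopentenyl diphosphate, averaged 62.2 ± 3.93 CPM with BMS309403 and 107 ± 5.60 CPM in control (log2 fold change -0.78, interval -0.90 to -0.66). The intervals of Mvk and Mvd did not overlap, and Mvk had the smallest estimated fall of the 7 mevalonate genes.

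Idi1, the isomerase that balances the C5 building blocks, was 1.52-fold lower, at 36.5 CPM with BMS309403 and 55.7 CPM in control. The pseudogene Gm13502 matches 684 of its bases and held 135 counts over the 8 libraries, against 14274 for Idi1. Fdps makes farnesyl diphosphate, the branch point of the pathway. It read 40.5, 40.5, 45.0 and 40.1 CPM in BMS309403 libraries, against 61.9, 67.0, 72.6 and 64.7 CPM in control libraries. Every BMS309403 value was below every control value, and Fdps fell by 0.68 on the log2 scale (SE 0.058, adjusted p = 3.22e-06). A protein-coding annotation on the same strand, Gm43738, covers 26.7% of the exon length of Fdps, and reads there may belong to either.

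The steps after the branch point are committed to sterols. Fdft1, squalene synthase, averaged 102 ± 5.52 CPM with BMS309403 and 147 ± 6.90 CPM in control (SD, n = 4 each), 1.44-fold lower. It shares 774 bases of exon with Ctsb on the opposite strand. Sqle encodes squalene epoxidase, known as a controlled oxygen-dependent step. It read 136, 131, 133 and 121 CPM in BMS309403 libraries, against 201, 185, 187 and 179 CPM in control libraries. The groups did not overlap, and the log2 fold change was -0.53 (SE 0.049, adjusted p = 6.23e-06). Lss, which closes the first sterol ring system to lanosterol, read 81.1, 84.8, 80.8 and 74.6 CPM with BMS309403, against 137, 146, 147 and 136 CPM in control. It fell further than its neighbours Fdft1 and Sqle, by 0.81 on the log2 scale (SE 0.048, adjusted p = 1.49e-07), and its interval of -0.92 to -0.71 did not overlap with theirs (-0.64 to -0.42 and -0.64 to -0.43).

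The enzymes that trim lanosterol fell as well. Cyp51, the lanosterol demethylase, averaged 255 ± 15.1 CPM with BMS309403 and 421 ± 28.8 CPM in control (SD, n = 4 each; log2 fold change -0.72). Msmo1 and Nsdhl, which act in turn to remove the methyl groups at carbon 4 of the ring, were 1.62-fold and 1.67-fold lower. Stretches of about 200 bases of Msmo1 match transcripts of several unrelated genes, and reads there were uncertain. Hsd17b7, the ketoreductase of the same cycle, changed less, with 47.9 ± 1.75 CPM in BMS309403 and 61.8 ± 1.92 CPM in control libraries (log2 fold change -0.37, interval -0.46 to -0.27, against -0.84 to -0.65 for Nsdhl). Tm7sf2, a sterol reductase that shares 532 bases of exon with Vps51 on the same strand, had a log2 fold change of -0.68 and had the lowest level of the 18 enzymes per exon length, 3.69 CPM per kb with BMS309403 and 5.89 CPM per kb in control.

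The last steps differed among themselves. Ebp, the sterol isomerase, averaged 60.8 ± 5.25 CPM with BMS309403 and 81.0 ± 8.08 CPM in control, and the groups were close, with 66.9 CPM the highest BMS309403 library and 70.3 CPM the lowest control library. Its adjusted p of 0.00136 was the largest of the 18. Sc5d, the sterol desaturase, was 1.42-fold lower (log2 fold change -0.51, interval -0.58 to -0.43). Dhcr7 (ENSMUSG00000058454, chromosome 7, 143823145 to 143848410, plus strand) encodes a reductase of the final steps to cholesterol. It read 63.9, 63.7, 68.1 and 60.5 CPM in BMS309403 libraries, against 114, 117, 123 and 116 CPM in control libraries. The groups were far apart, and the log2 fold change was -0.88 (SE 0.045, adjusted p = 5.73e-08). Dhcr7 had the smallest adjusted p of the 31 genes.

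**Figure D2:**
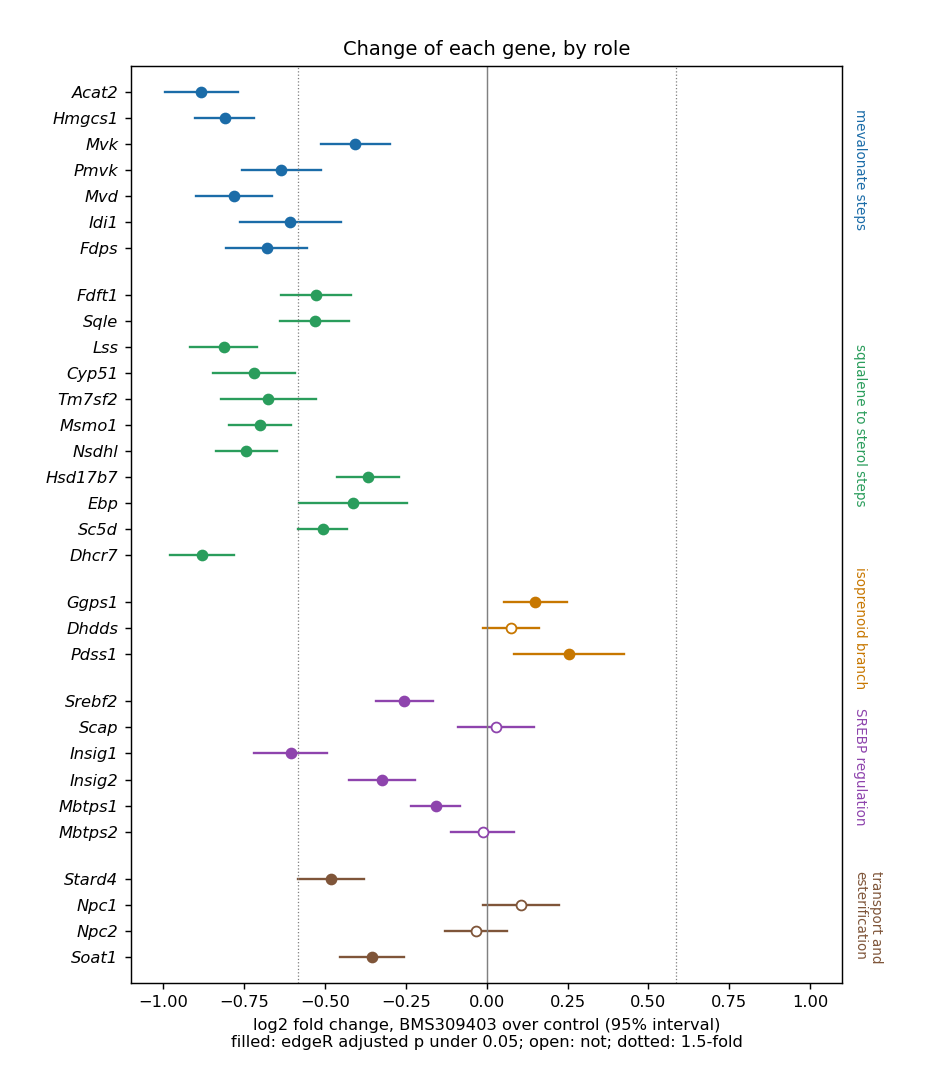
Log2 fold change (BMS309403 over control) of each gene with its 95% interval, in pathway order and coloured by role; filled points were called by edgeR at an adjusted p under 0.05, open points were not, and dotted lines mark 1.5-fold. The 18 enzymes lie between -0.88 and -0.37, the isoprenoid branch lies between 0.08 and 0.25, and the other roles hold both lowered genes and genes near 0.

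**Figure D3:**
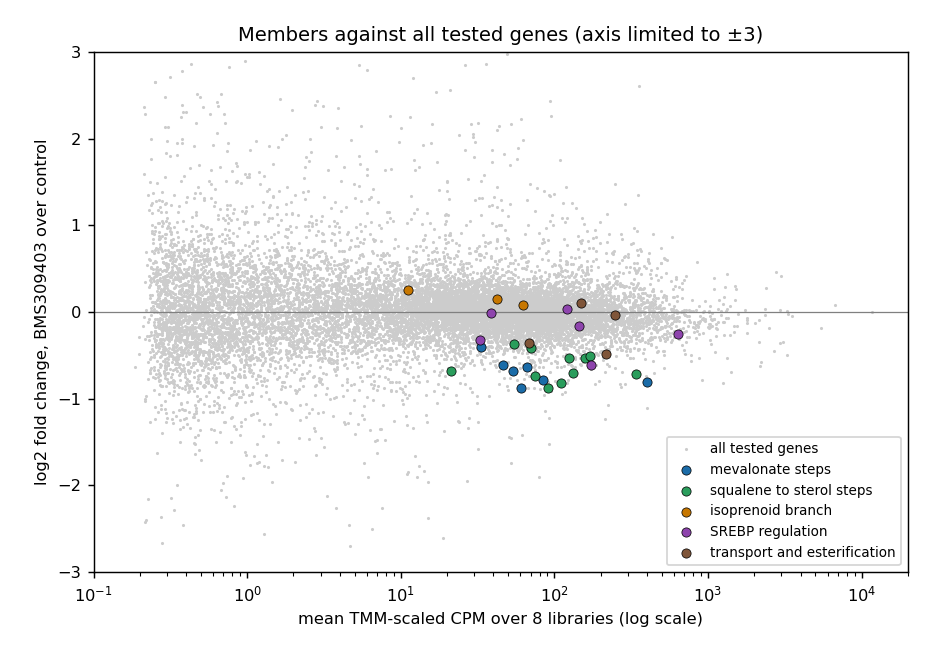
Log2 fold change (BMS309403 over control) against mean CPM (log scale) for all 14443 tested genes in grey and the 31 genes coloured by role; the vertical axis is limited to 3 in either direction. The synthesis enzymes lie below most of the grey points.

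The same window was read in front of the starts of these genes, because genes of this pathway share known promoter elements. RefSeq promoter windows on GRCm38.p6, from 250 bases before to 50 bases after a start, were matched for 26 of the 31 genes. The letters searched on both strands were CACCCCAC and TCACNCCAC for the sterol regulatory element (which overlap each other), CACGTG (an E-box), ATTGG (the inverted CCAAT box, bound by NF-Y) and GGGCGG (bound by Sp1). ATTGG was found for 21 of the 26 genes and GGGCGG for 22. Of all 32851 windows, 37.4% and 35.7% held these letters, and of the 32 windows of the 26 genes 65.6% and 78.1% did. CACGTG lay in 21.9% of the genes' windows and in 7.15% of all windows. Of the 20 genes called lower that had a window, 4 held CACGTG, 18 ATTGG and 19 GGGCGG. Of the other 6 genes with a window, 2, 3 and 3 did, in the same order. Whether these letters bear on the changes was not tested. CACCCCAC was found for Acat2 and Hmgcs1 only, in 6.25% of the genes' windows and 2.87% of all windows, and TCACNCCAC for Hmgcs1 only, in 3.12% and 1.24%. A match is a string of letters and not a shown site, and known elements can differ from these strings or lie outside the window.

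The 250 bases before the start are shown for both genes with CACCCCAC and for the paralogs Insig1 and Insig2, whose estimated changes differed in size. Capitals mark the searched letters on either strand, and the sequences are those of the gene's strand. They lie at chr13:119690101-119690350, plus strand, at chr17:12960726-12960975, minus strand, at chr5:28071162-28071411, plus strand and, for the first RefSeq start of Insig2, at chr1:121332590-121332839, minus strand.
Hmgcs1: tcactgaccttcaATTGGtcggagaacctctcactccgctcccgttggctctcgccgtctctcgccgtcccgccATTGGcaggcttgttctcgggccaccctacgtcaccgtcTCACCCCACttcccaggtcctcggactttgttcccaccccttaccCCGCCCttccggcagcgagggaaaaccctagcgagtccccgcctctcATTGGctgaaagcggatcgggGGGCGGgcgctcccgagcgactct
Acat2: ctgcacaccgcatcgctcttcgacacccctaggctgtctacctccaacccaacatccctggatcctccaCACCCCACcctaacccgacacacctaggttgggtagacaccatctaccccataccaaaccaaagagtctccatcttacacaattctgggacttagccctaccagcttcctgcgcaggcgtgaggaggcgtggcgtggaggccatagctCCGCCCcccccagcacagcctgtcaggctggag
Insig1: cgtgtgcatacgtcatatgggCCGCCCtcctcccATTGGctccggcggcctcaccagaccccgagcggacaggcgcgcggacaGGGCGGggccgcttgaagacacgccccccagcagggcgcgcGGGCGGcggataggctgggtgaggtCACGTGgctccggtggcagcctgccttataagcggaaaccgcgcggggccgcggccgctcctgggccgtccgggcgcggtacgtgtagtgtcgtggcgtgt
Insig2: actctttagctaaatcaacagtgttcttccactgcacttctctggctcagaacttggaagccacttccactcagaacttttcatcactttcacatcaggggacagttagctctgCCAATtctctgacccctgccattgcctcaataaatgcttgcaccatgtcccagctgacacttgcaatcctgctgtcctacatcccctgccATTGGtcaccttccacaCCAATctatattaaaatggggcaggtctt
In Hmgcs1 both strings searched for the sterol element coincide, starting 137 bases before the start for TCACNCCAC. It also holds ATTGG at 237, 176 and 45 bases before the start. In Acat2 the CACCCCAC string starts 181 bases before the start. The Insig1 stretch holds CACGTG 101 bases and ATTGG 216 bases before the start and 3 GGGCGG boxes on either strand, whereas the Insig2 stretch holds ATTGG on either strand at 136, 46 and 29 bases before the start and none of the other 4 strings. Windows of other RefSeq starts of Insig2, not shown, held GGGCGG at 6 and 128 bases before the start. Which start these cells use was not tested.

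Of the isoprenoid branch, 2 genes were called higher (66.7%, against a background of 18.7% of tested genes) and 1 was not called. Ggps1 makes geranylgeranyl diphosphate, a lipid that anchors proteins to membranes. It read 44.2, 43.7, 45.6 and 44.9 CPM in BMS309403 libraries, against 42.6, 39.9, 39.6 and 38.6 CPM in control libraries. The groups did not overlap, but the gap was small, and the log2 fold change was 0.15 (SE 0.045, adjusted p = 0.0209). It lost its call without BMS309403 replicate 3 (adjusted p = 0.0554) or 4 (0.0524), and without control replicate 2 (0.0619), 3 (0.0646) or 4 (0.0566). Ggps1 also shares 257 bases of exon with Arid4b on the opposite strand.

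Pdss1, which starts the ubiquinone side chain, had 13.5, 11.5, 11.5 and 11.7 CPM with BMS309403, against 10.9, 10.0, 10.0 and 9.45 CPM in control libraries. BMS309403 replicate 1 stood above the rest of its group, and the log2 fold change was 0.25 (SE 0.077, adjusted p = 0.0227). Pdss1 lost its call without that library (0.0591), and without control replicate 2 (0.0599), 3 (0.0592) or 4 (0.0619). Dhdds, the catalytic subunit that makes dolichol precursors, read 65.9, 63.7, 64.1 and 63.1 CPM with BMS309403, against 63.2, 60.5, 61.5 and 58.6 CPM in control. These ranges met, and Dhdds was not called (log2 fold change 0.08, interval -0.01 to 0.16, adjusted p = 0.158). The intervals of all 3 branch genes lay above those of all 18 synthesis enzymes, of which the highest bound was -0.25 for Ebp.

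Regulators of the pathway split into 4 genes called lower (66.7%, against a background of 18.1% of tested genes) and 2 not called. Srebf2 (ENSMUSG00000022463, chromosome 15, 82147181 to 82205379, plus strand) encodes SREBP2, the transcription factor of the pathway. It read 576, 584, 595 and 556 CPM in BMS309403 libraries, against 670.4, 710.0, 692 and 685 CPM in control libraries. The groups were apart but close, and Srebf2 fell by 0.25 on the log2 scale (SE 0.040, adjusted p = 0.000441). That estimated fall was smaller than that of any of the 18 enzymes, but its interval of -0.34 to -0.17 overlapped with those of Mvk, Hsd17b7 and Ebp. Srebf2 is itself known as a target of its product.

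Insig1 (ENSMUSG00000045294, chromosome 5, 28071363 to 28078662, plus strand) encodes an anchor of SCAP that is itself a known SREBP target. It stood at 145, 134, 140.4 and 126 CPM with BMS309403, against 211, 208, 216 and 196 CPM in control, a fall of the same order as the enzymes (log2 fold change -0.61, SE 0.051, adjusted p = 3.24e-06). Insig2 (ENSMUSG00000003721, chromosome 1, 121304353 to 121332589, minus strand), the paralog that is not driven by SREBP, read 28.8, 30.6, 28.6 and 29.0 CPM with BMS309403, against 35.1, 37.2, 36.4 and 37.7 CPM in control. Insig2 fell less than Insig1, by 0.32 on the log2 scale (SE 0.047, adjusted p = 0.000226). Its interval of -0.43 to -0.22 overlapped with those of several of the enzymes, among them Mvk, Hsd17b7 and Ebp. Per exon length Insig1 stood at 44.1 CPM per kb with BMS309403 and 67.2 CPM per kb in control, and Insig2 at 8.42 and 10.5 CPM per kb in the same groups.

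The ratio within a library needs no scaling between libraries. The log2 ratio of Insig1 to Insig2 counts averaged 2.22 ± 0.113 in BMS309403 libraries and 2.50 ± 0.0983 in control libraries (SD, n = 4 each), a difference of -0.28 (two-sided exact permutation test over 70 arrangements, p = 0.0286, the smallest it allows). With 1 library left out there are 35 arrangements. The exact p was 0.0571 without BMS309403 replicate 2, BMS309403 replicate 4, control replicate 1 or control replicate 3, with differences of -0.26 to -0.25, and the groups did not overlap in any of the 8 cases. Taken as pairs by replicate number, the 4 differences had an exact sign-flip p = 0.125, which 4 pairs cannot go below.

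The machinery that carries and cuts SREBP2 changed little. Scap read 128, 122, 121 and 119 CPM in BMS309403 libraries, against 132, 122, 112 and 114 CPM in control libraries. The ranges overlapped, and the log2 fold change was 0.03 (95% interval -0.09 to 0.15, adjusted p = 0.697). Mbtps1, the first protease, averaged 137 ± 1.95 CPM with BMS309403 and 153 ± 1.75 CPM in control (SD, n = 4 each), a small fall (log2 fold change -0.16, adjusted p = 0.00376). Mbtps2, the intramembrane protease that acts next, read 37.8, 38.3, 37.5 and 40.6 CPM with BMS309403, against 39.1, 38.6, 37.8 and 40.1 CPM in control. It was not called (log2 fold change -0.01, interval -0.11 to 0.09, adjusted p = 0.848), and 28.4% of its exon length is shared with Yy2 on the same strand.

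**Figure D4:**
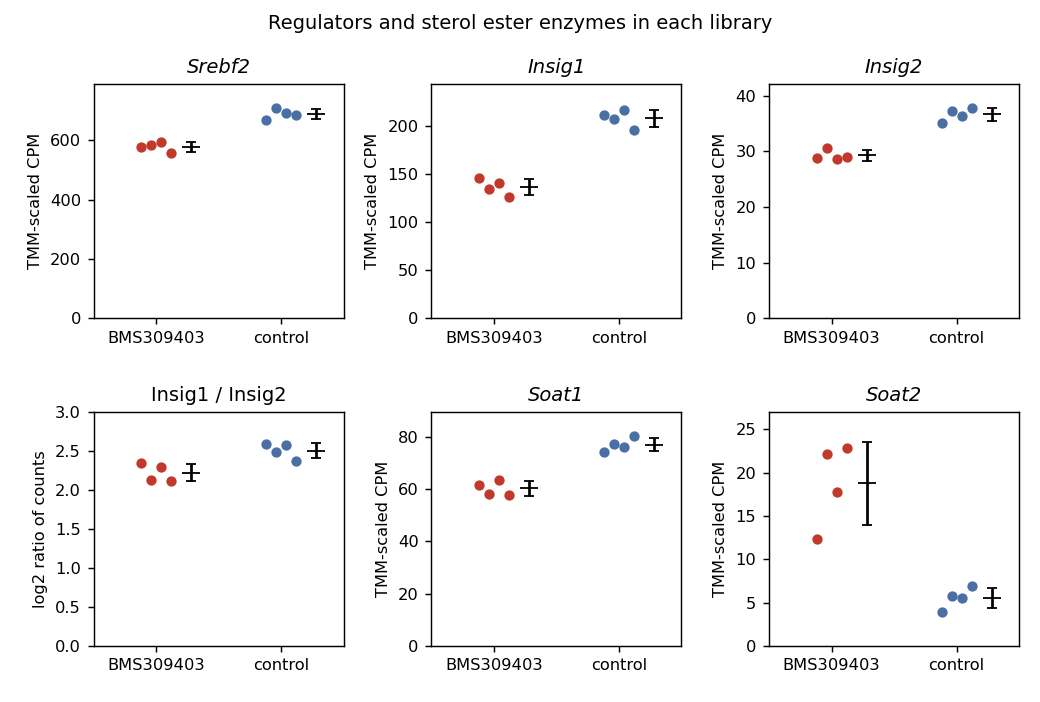
TMM-scaled CPM in each library for Srebf2, Insig1, Insig2, Soat1 and Soat2, and the log2 ratio of Insig1 to Insig2 counts, with BMS309403 left of control; bars beside the points give the mean and SD of 4 libraries. Srebf2, Insig1, Insig2 and Soat1 are lower with BMS309403 in every library, Soat2 is higher in every library, and the ratio panel shows the larger fall of Insig1.

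Genes of sterol movement and storage also split. Stard4, a cytosolic sterol carrier and known SREBP2 target, averaged 179.5 ± 9.57 CPM with BMS309403 and 251 ± 8.29 CPM in control (SD, n = 4 each; log2 fold change -0.48, adjusted p = 9.77e-06). Npc1, which exports cholesterol from lysosomes, read 146, 159, 156 and 155 CPM with BMS309403, against 129.7, 145, 141 and 155 CPM in control. The ranges overlapped and Npc1 was not called (log2 fold change 0.11, interval -0.01 to 0.22, adjusted p = 0.14). It passed with the replicate numbers as a block (adjusted p = 0.0119) and without control replicate 4 (0.0460). Npc2, the lumenal partner that hands cholesterol to NPC1, read 245, 234, 258 and 239.9 CPM with BMS309403, against 249.9, 262, 243 and 245 CPM in control, with no call (log2 fold change -0.03, interval -0.13 to 0.06, adjusted p = 0.591).

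Soat1 encodes the enzyme that esterifies cholesterol for storage in most cells. It read 61.7, 58.1, 63.4 and 57.8 CPM in BMS309403 libraries, against 74.1, 77.4, 76.2 and 80.2 CPM in control libraries. The groups did not overlap, and the log2 fold change was -0.35 (SE 0.045, adjusted p = 9.03e-05). Its paralog Soat2 (ENSMUSG00000023045, chromosome 15, 102150526 to 102163469, plus strand), no member of the 31 and best known from liver and intestine, moved the other way. Soat2 read 12.3, 22.1, 17.8 and 22.8 CPM with BMS309403, against 3.93, 5.73, 5.56 and 6.86 CPM in control. It varied more between libraries than Soat1, and its rise of 3.38-fold had an adjusted p = 3.14e-05 (log2 fold change 1.75 with SE 0.20). Per exon length Soat2 was at 8.47 CPM per kb with BMS309403 and 2.49 CPM per kb in control, and Soat1 at 6.15 and 7.86 CPM per kb in those groups. These values depend on exon lengths taken as the union over annotated transcripts, 9.79 kb for Soat1 and 2.21 kb for Soat2. In CPM Soat1 stood above Soat2 in every library of both groups.

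**Figure D5:**
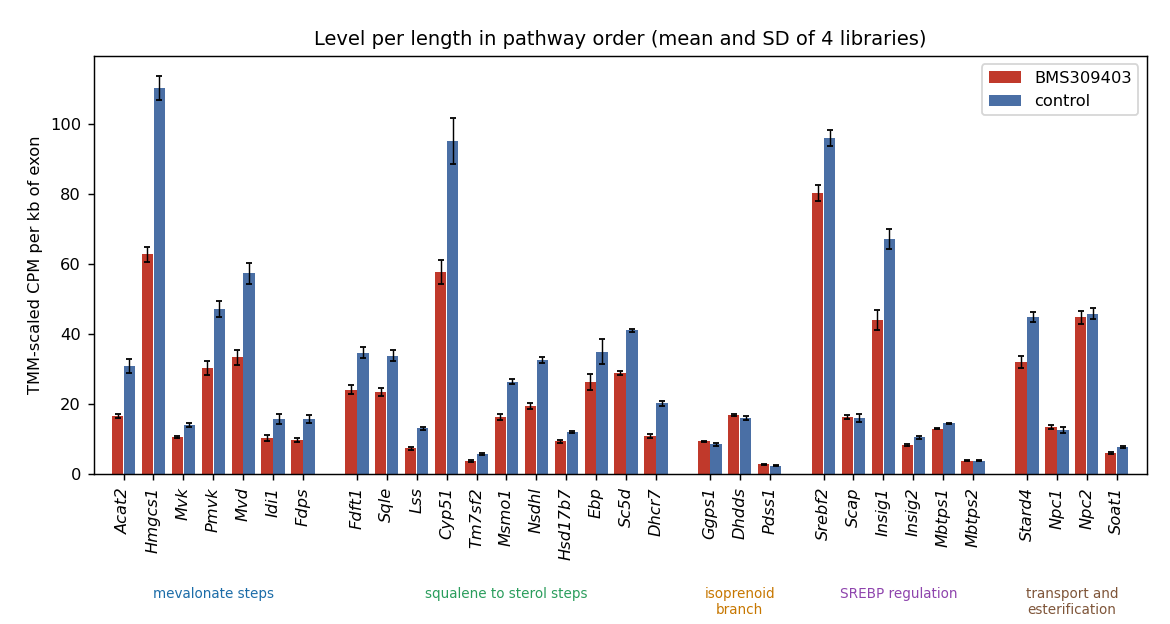
Mean TMM-scaled CPM per kb of exon for the 31 genes in pathway order, with BMS309403 left of control and the SD of 4 libraries as error bars. Hmgcs1, Srebf2 and Cyp51 are the 3 highest bars in both groups, and Srebf2 exceeds Hmgcs1 with BMS309403 while Hmgcs1 exceeds Srebf2 in control.

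Levels per exon length ranged widely within the pathway. With BMS309403 the highest were Srebf2 at 80.4 ± 2.31, Hmgcs1 at 62.9 ± 2.15 and Cyp51 at 57.8 ± 3.42 CPM per kb, and in control Hmgcs1 at 110.4 ± 3.46, Srebf2 at 96.0 ± 2.29 and Cyp51 at 95.2 ± 6.52 CPM per kb (SD, n = 4 each). Srebf2 and Cyp51 did not differ beyond their spread in control, while Hmgcs1 and Srebf2 changed places between the groups. Pdss1 was the lowest of the 31 in both groups, at 2.84 CPM per kb with BMS309403 and 2.38 CPM per kb in control, followed by Tm7sf2 with BMS309403 and by Mbtps2 in control. Exon length was the union over annotated transcripts, so genes with many long isoforms read low on this scale.

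A further 46 genes that act around the pathway were examined in 3 lists, of which 43 were tested. Over these lists 8 genes were called lower and 10 higher, 18.6% and 23.3% of those tested, against backgrounds of 18.1% and 18.7%. These shares were near the background, and the median log2 fold change was 0.02. Among 11 feedback and processing genes, 4 were called lower and 2 higher (36.4% and 18.2%). Srebf1, the sister gene of Srebf2 that drives fatty acid synthesis, was at 255 CPM with BMS309403 and 369.7 CPM in control (log2 fold change -0.53, adjusted p = 1.01e-06). Lpin1, a phosphatidate phosphatase, and Tmem97, a sterol-regulated membrane protein, were 1.39-fold and 1.33-fold lower. Paqr3, which tethers SCAP to the Golgi, was 1.87-fold higher at 5.79 CPM with BMS309403 and 3.11 CPM in control, and 15.7% of its exon length is shared with Bmp2k on the opposite strand.

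Of 15 tested sterol handling genes, 4 were called lower and 2 higher (26.7% and 13.3%, against backgrounds of 18.1% and 18.7%). Beside Soat2, the named changes were those of Lbr, a sterol reductase of the nuclear envelope (1.35-fold lower), and Aacs, which turns acetoacetate into its CoA ester (1.34-fold lower). Among 17 genes that use isoprenoids, 6 were called higher (35.3%, against a background of 18.7%) and 11 were not called. Srd5a3, which completes dolichol, was 1.19-fold higher, and Rabggtb, which attaches geranylgeranyl groups to Rab proteins, was 1.17-fold higher. Pggt1b, a subunit of another enzyme that attaches geranylgeranyl groups to proteins, was 1.14-fold higher (adjusted p = 0.0204), and lost its call without BMS309403 replicate 2 (0.0708) or 4 (0.0503) and control replicate 2 (0.0719) or 3 (0.0513). Coq2, which joins the side chain to the ubiquinone ring, was 1.12-fold higher (adjusted p = 0.0231). It was not called without BMS309403 replicate 1 (0.0528), 2 (0.0617) or 4 (0.0536), or without control replicate 2 (0.0662), 3 (0.0703) or 4 (0.0621).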

How the data were processed

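Per the labels' protocols, total RNA was made into stranded mRNA libraries for Illumina sequencing. The authors deposited whole-number counts of reads per Ensembl gene for each of the 8 libraries, not normalized. Per the submitters' processing notes, STAR, featureCounts, DESeq2 and deepTools were used with GRCm38. Versions, the annotation release, and the handling of strand and multiply matching reads are not given in the sources used here. Symbols, positions and exon lengths came from GENCODE M21 (53360 of 53465 IDs matched), and copies of at least 200 bases at 95% identity were sought among its transcripts.

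Counts were tested with edgeR 4.0.16 (R 4.3.3) after filterByExpr and TMM scaling, with treatment alone in the model and Benjamini-Hochberg adjustment over 14443 genes, and the fit was tested on simulated data. Changes past 1.5-fold were tested with glmTreat. The SE comes from the F statistic, and intervals are 95%. Every adjusted p is from this test, or, where a block or a left-out library is named, from the same test refitted that way. Alternatives were DESeq2 1.42.0, its size factors, no filter, a replicate block and leaving out each library.

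Libraries that share a number deviated together from their groups, with correlations of 0.384, 0.145, 0.106 and 0.264 for replicates 1 to 4. BMS309403 replicate 2 correlated best with control replicate 4, and every other library with its own number. All 4 values exceeded 0.1, so the numbers of the titles were taken as pairs on the data alone. The pairs were used in the replicate block, the sign-flip test and the same-numbered comparisons, but not in the main test. Replicates differed by more than sampling noise (chi-square per degree of freedom 3.08 to 24.2), and each library was counted.

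The genes and lists were chosen with earlier results of these data known. All 31 genes are named. Those given library by library are the 3 largest called falls, the 2 called rises, a defining gene of each role and every gene not called. Of each further list up to 4 called genes with the largest change are named, except 1 that is not reported here. The list does not hold every gene of the pathway, and others are not analysed here. Sequences are from RefSeq (GRCm38.p6). A comparison of the Insig proteins was planned but not made, since no protein sequences were used here.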

Additional observations from a re-analysis of the deposited data

Results flagged for a closer look

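Among 92 groups of 4 libraries, 9 held a library that stood apart from the other 3 by Dixon's test at the 95% level. Chance gives about 1 in 20. In control libraries, replicate 1 was lowest for Hmgcs1 (483.2 CPM), Pmvk (74.8 CPM), Tm7sf2 (23.8 CPM) and Lpin1 (80.6 CPM). In BMS309403 libraries, replicate 3 was highest for Mvd (68.0 CPM), Fdps (45.0 CPM) and Fdft1 (110.2 CPM). BMS309403 replicate 4 was highest for Tm7sf2 (18.1 CPM) and BMS309403 replicate 1 for Pdss1 (13.5 CPM). The calls of Hmgcs1, Pmvk, Mvd, Fdps, Fdft1, Tm7sf2 and Lpin1 held without each library in turn, and that of Pdss1 did not hold without BMS309403 replicate 1 (adjusted p = 0.0591).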

How the results depend on the processing

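The count of 24 lowered genes was the same under all 12 alternatives. The count past 1.5-fold lay between 6 and 9 under the 11 alternatives that gave one, with 9 under the replicate block. Of 372 fold changes of single members under alternatives, 359 kept their direction and their side of the threshold. Without a library in turn, 0 to 2 members were called higher by edgeR, 0 without control replicate 2 or 3, when 2 members were higher at an unadjusted p under 0.05 in each case, and DESeq2 on all libraries called 2. In the same way 6 to 11 further pathway genes were called higher, 6 without control replicate 2, and the replicate block called 12 lower and 14 higher. The log2 fold change of Scap lay between -0.0035 (without control replicate 3) and 0.077, and that of Mbtps2 between -0.0385 and 0.0004 (without BMS309403 replicate 3), not called in any. The log2 difference in the Insig1 to Insig2 ratio lay between -0.33 and -0.25 without each library. With the replicate block it was -0.28 with an exact p = 0.125, the smallest that 4 pairs allow. The block changed no other call among the 31 genes but that of Npc1. Over all genes it called 3728 lower and 3845 higher, against 2617 and 2694 without it. Each member held at least 1516 counts in either group, and whether depth or the number of libraries limits the precision was not tested.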

Other observations

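The summed level of the 18 synthesis enzymes was lower with BMS309403 in each same-numbered pair, by 36.5%, 38.8%, 36.9% and 38.2% for replicates 1 to 4, and all 18 enzymes were lower in every pair. Within the BMS309403 group, replicate 4 was the lowest library for 11 of the 18 enzymes and replicate 3 the highest for 11. Within the control group, replicate 4 was likewise the lowest for 11 and replicate 3 the highest for 9.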
